A study of Mus musculus with 25 samples.

Results

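The 10 genes described here are Saa3, Lcn2, C3, Il6, Il11, Lif, Osmr, Il6st, Socs3 and Il33, a set of acute-phase and IL-6 family genes measured in cells sorted from mouse lung. They were chosen by name, and no measured value entered the rule. Earlier results of these data were known when they were chosen, so the list is not independent of the data. They are 10 of 47729 genes in the bulk count table, and all 10 passed the filter on low counts that left 15773 genes for testing. All 10 are also among the 31053 features of the single-cell matrices.

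The study asked how loss of Fas, a death receptor, in fibroblasts changes the lung after bleomycin, a drug that injures the alveolar epithelium when instilled into the trachea. Lin- cells, negative for CD45, CD31 and CD326, were sorted from digested lungs, and RNA was sequenced in bulk and in single cells. There were 20 bulk libraries, 4 in each of 5 groups, and 5 single-cell libraries, each made from 4 pooled mice and standing for 1 condition. Every mouse was Col1a1-Cre-ERT2;Fas fl/fl, with a floxed exon in the Fas gene and an inducible Cre driven by the Col1a1 promoter. The design aims recombination at cells in which that promoter is active. How confined and how complete the deletion was cannot be read from the values used here. Naive mice received no bleomycin. Mice called Fas+/+ here (labelled WT) received bleomycin and then corn oil, and were taken at week 3 or week 6. Mice called Fas-/- (labelled FasDel) received bleomycin and then tamoxifen, and were taken at the same weeks. Genotype and tamoxifen therefore cannot be told apart in any comparison. The sources used here do not say whether the naive mice of these libraries were injected. If they were not, bleomycin and the injections cannot be told apart in comparisons with naive mice. The labels do not give the age of the mice. By the statistics section of the methods, replicates were individual animals, while the labels themselves only number the libraries.

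In the acute-phase response, injured tissue and innate immune cells release cytokines of the IL-1 and IL-6 families, and target cells answer by making secreted defence proteins such as serum amyloids, lipocalin-2 and complement. IL-6, IL-11, LIF and oncostatin M signal through receptor complexes that share the chain gp130 (Il6st), which activates JAK kinases and STAT3. SOCS3, itself a STAT3 target, binds gp130 and shuts the signal off. IL-33 is a nuclear cytokine of the IL-1 family that barrier and stromal cells release when they are damaged, and in the lung it acts on type 2 lymphoid cells through the receptor ST2.

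At week 3 after bleomycin 7 of the 10 genes were higher than in naive mice in both genotypes: Saa3, Lcn2, Il6, Il11, Lif, Osmr and Socs3. Saa3 and Lcn2 changed most, from naive means of 1.81 and 0.596 CPM to week 3 Fas+/+ means of 116 and 54.4 CPM (CPM are a gene's counts scaled to the size of its library, here with TMM, the trimmed mean of M values). At week 6, in the fit of all 20 libraries, the 3 ligands and Socs3 no longer passed the test against naive mice. Saa3 and Lcn2 were still raised. With all libraries Osmr then passed in Fas-/- mice only, and its calls depended on the libraries and settings used. None of the 10 differed between Fas-/- and Fas+/+ mice at either week when all 20 libraries were used. Il6st, C3 and Il33 did not pass the test against naive mice in any group.

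Bulk libraries held between 11819700 and 25189096 counts in total (median 20122870). The label of primary lung fibroblast was set beside the marker lists. The 8 Col14a1 fibroblast genes summed to between 2866 and 5726 CPM in every library, while 6 hematopoietic markers summed to between 1.3 and 27.5 CPM. Markers of other mesenchymal cells were also present. The 6 vascular smooth muscle markers summed to between 1002 and 4578 CPM and the 6 pericyte markers to between 834.9 and 2978 CPM. Markers of blood vessels were not absent. The 8 blood endothelial markers summed to 227 to 501 CPM in naive libraries, and every week 3 library lay above that range. Among the week 3 libraries 2 stood apart by them. In week 3 Fas+/+ replicate 1 the 8 blood endothelial markers summed to 9048 CPM, against 2301 to 3040 in the other 3 libraries of that group. In week 3 Fas-/- replicate 4 the sum was 7927 CPM, against 660 to 1105. The same 2 libraries had the lowest summed profibrotic fibroblast markers of their groups, 10990 and 19920 CPM, against 38910 to 56970 in the other 6 libraries of week 3. Where leaving out both changed a call, the result is given with and without these 2 libraries, an alternative chosen after seeing the data. Without them the genotypes still did not overlap at week 3 in blood endothelial markers, at 2301 to 3040 CPM in Fas+/+ and 660 to 1105 CPM in Fas-/- libraries. The 6 erythroid markers summed to between 2992 and 9622 CPM in naive libraries and to between 18.5 and 254 CPM in all others. Fas itself had 22.1 ± 1.25 CPM (SD, n = 4) in naive libraries and 41.0, 44.2, 31.4 and 40.4 CPM on average in week 3 Fas+/+, week 3 Fas-/-, week 6 Fas+/+ and week 6 Fas-/- libraries, but counts per gene include reads outside the deleted exon and do not check the deletion.

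**Figure D1:**
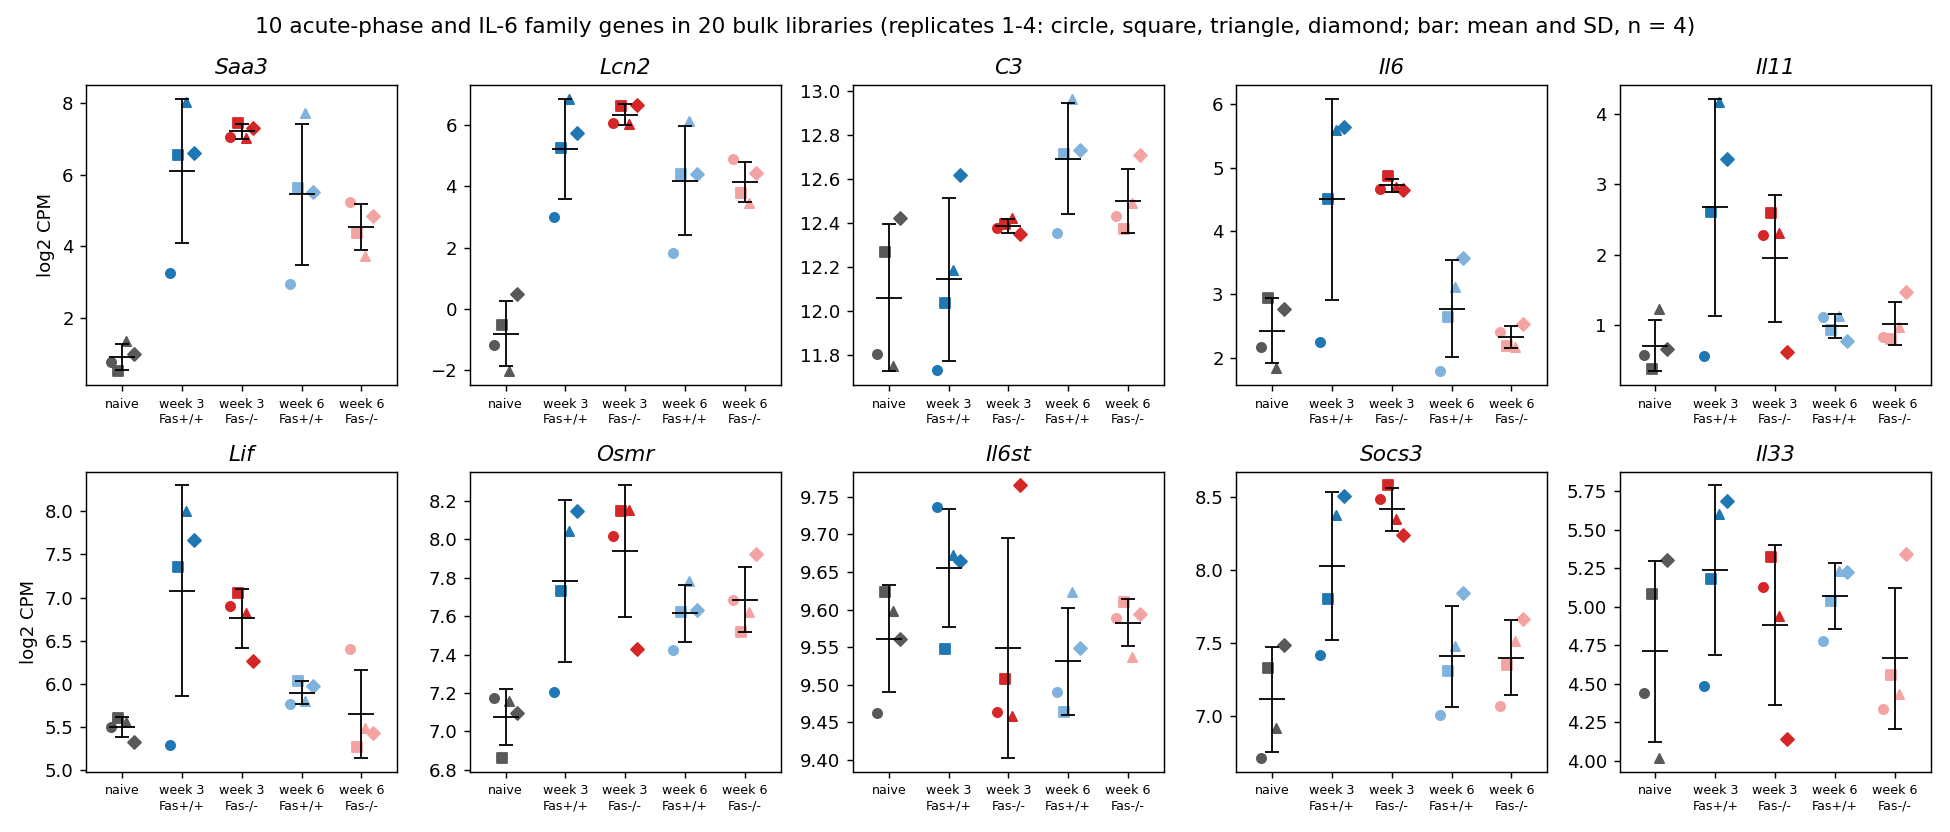
Each panel shows 1 of the 10 genes, with log2 CPM on the y axis and the 5 bulk groups on the x axis; symbols mark replicates 1 to 4 and bars give the mean and SD of 4 libraries. Saa3 and Lcn2 lay above the naive libraries in all 16 libraries given bleomycin, and week 3 Fas+/+ replicate 1 (circle) was the lowest of its group for 9 genes, Il6st excepted.

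Saa3 (chr7:46711998-46715700, minus strand, GRCm38) encodes serum amyloid A3, the amyloid of the family that is made mainly outside the liver. In replicates 1 to 4, the order used throughout, its level was 1.59, 1.32, 2.44 and 1.91 CPM in naive mice and 9.47, 94, 262 and 97.2 CPM in week 3 Fas+/+ mice. In week 3 Fas-/- mice it was 134, 177, 130 and 159 CPM. Every library of week 3 lay above every naive library, and the Fas+/+ libraries were spread far wider than the Fas-/- libraries. The log2 fold change against naive mice was 5.99 (SE 0.966, adjusted p = 0.00014) in Fas+/+ and 6.37 (SE 0.979, adjusted p = 0.000173) in Fas-/- mice, by edgeR's quasi-likelihood test with Benjamini-Hochberg adjustment, the test behind all adjusted p-values here. These correspond to 63.7-fold and 82.9-fold higher levels. At week 6 the values were 7.59, 49.5, 214 and 45.5 CPM in Fas+/+ mice and 37.5, 20.8, 13.3 and 28.9 CPM in Fas-/- mice. They still lay above all naive values, with log2 fold changes of 5.45 (SE 0.948, adjusted p = 0.00202) and 3.80 (SE 0.905, adjusted p = 0.0182). From week 3 to week 6 Saa3 fell in Fas-/- mice by 2.58 on the log2 scale (SE 0.791, adjusted p = 0.0495), with no overlap between the weeks. That call was lost whenever 1 of its 8 libraries was left out (adjusted p from 0.0658 to 0.135). In Fas+/+ mice the weeks overlapped.

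Lcn2 (chr2:32384633-32388252, minus strand) encodes lipocalin-2, a secreted protein that binds bacterial siderophores and so withholds iron. Naive libraries held 0.345, 0.599, 0.143 and 1.3 CPM, week 3 Fas+/+ libraries 7.85, 38.5, 117 and 53.8 CPM, and week 3 Fas-/- libraries 67.5, 98.4, 65.3 and 102 CPM. Every library of week 3 lay above every naive library, Fas+/+ replicate 1 by the least. The log2 fold change was 6.47 in Fas+/+ (SE 0.956, adjusted p = 6.41e-05) and 7.09 in Fas-/- mice (SE 0.97, adjusted p = 6.3e-05), an 88.7-fold and a 137-fold difference. Its week 6 levels were 3.43, 20.9, 70.2 and 21.3 CPM in Fas+/+ and 29.5, 13.6, 10.9 and 21.7 CPM in Fas-/- mice. The log2 fold change against naive mice was then 5.57 (SE 0.938, adjusted p = 0.00157) and 4.96 (SE 0.932, adjusted p = 0.00442), and no library overlapped with the naive group. Lcn2 and Saa3 followed each other closely, with a Pearson correlation of log2 CPM of 0.968 over the 20 libraries and of 0.883 once each group's mean was removed. In particular, replicate 3 was the highest and replicate 1 the lowest for both genes among Fas+/+ libraries at week 3 and at week 6.

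C3 (chr17:57203970-57228136, minus strand) encodes the central component of complement, cleaved by all activation pathways. It was by far the most abundant of the 10 genes. Naive libraries held 3572, 4934, 3438 and 5484 CPM and week 3 Fas+/+ libraries 3401, 4198, 4661 and 6297 CPM. In week 3 Fas-/- libraries the level was 5321, 5385, 5488 and 5218 CPM, within or close to the naive range. The log2 difference from naive mice was 0.09 (SE 0.181, adjusted p = 0.719) and 0.30 (SE 0.181, adjusted p = 0.223) at week 3. At week 6 the levels were 5238, 6711, 8005 and 6815 CPM in Fas+/+ mice, where the difference from naive was 0.62 (SE 0.182, adjusted p = 0.0566), and 5530, 5308, 5755 and 6689 CPM in Fas-/- mice, where it was 0.42 (SE 0.193). C3 was the only one of the 10 that was higher at week 6 than at week 3 in Fas+/+ mice, by 0.53 (SE 0.182, adjusted p = 0.0437), although the groups overlapped. That call was lost when any of 6 of its 8 libraries was left out (adjusted p from 0.00951 to 0.134 over the 8), with no filter (0.0552) and in a fit of only the compared groups (0.127). Without the 2 libraries high in endothelial markers it was lost too (adjusted p = 0.0796), while the difference of week 6 Fas+/+ from naive mice passed the test (adjusted p = 0.0179).

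Il6 (chr5:30013114-30019981, plus strand) encodes the cytokine that gives the family its name. Its level was 4.39, 7.59, 3.49 and 6.71 CPM in naive mice, 4.66, 22.7, 48.6 and 50 CPM in week 3 Fas+/+ mice and 25.2, 29.2, 25.8 and 25.1 CPM in week 3 Fas-/- mice. The 4 Fas-/- libraries were tightly grouped above all naive libraries, whereas Fas+/+ replicate 1 lay inside the naive range. Il6 was 5.63-fold higher than in naive mice in Fas+/+ (log2 fold change 2.49, SE 0.503, adjusted p = 0.000904) and 4.73-fold higher in Fas-/- mice (2.24, SE 0.499, adjusted p = 0.0029). By week 6 it had returned to 3.35, 6.14, 8.58 and 11.8 CPM in Fas+/+ mice and 5.22, 4.46, 4.4 and 5.7 CPM in Fas-/- mice. The fall from week 3 was 2.08 on the log2 scale in Fas+/+ (SE 0.495, adjusted p = 0.00604) and 2.41 in Fas-/- mice (SE 0.507, adjusted p = 0.0092). In Fas-/- mice the weeks did not overlap.

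Il11 (chr7:4772373-4782859, minus strand) encodes interleukin-11, a gp130 cytokine known as a fibroblast product downstream of TGF-β. It was the rarest of the ligands in bulk, at 1.38, 1.2, 2.25 and 1.47 CPM in naive mice. Week 3 Fas+/+ libraries held 1.37, 6, 17.9 and 10.2 CPM and week 3 Fas-/- libraries 4.74, 5.91, 4.87 and 1.43 CPM. In both genotypes it was the library with high endothelial markers that stayed in the naive range, and the other 3 lay above it. The log2 fold change was 2.48 in Fas+/+ (SE 0.533, adjusted p = 0.00145) and 1.43 in Fas-/- mice (SE 0.525, adjusted p = 0.0449), and the latter call was lost when any of 6 of its 8 libraries was left out. Without both libraries high in endothelial markers, the change in Fas-/- mice was 1.72 (SE 0.3, adjusted p = 0.000319). At week 6 no library of either genotype exceeded 2.66 CPM. The fall from week 3 was 2.21 in Fas+/+ mice (SE 0.525, adjusted p = 0.00599).

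Lif (chr11:4257557-4272514, plus strand) encodes leukaemia inhibitory factor, which signals through LIFR and gp130. Naive libraries held 44.9, 48.3, 46.9 and 40.1 CPM. Week 3 Fas+/+ libraries held 38.9, 164, 256 and 204 CPM, and week 3 Fas-/- libraries 120, 133, 113 and 77 CPM. All Fas-/- libraries lay above the naive range, and of the Fas+/+ libraries only replicate 1 did not. The level was 3.67-fold higher than in naive mice in Fas+/+ (log2 fold change 1.88, SE 0.376, adjusted p = 0.000856) and 2.46-fold higher in Fas-/- mice (1.30, SE 0.37, adjusted p = 0.0133). At week 6 Lif stood at 54.4, 65.5, 55.7 and 62.9 CPM in Fas+/+ mice. This group lay just above the naive range without passing the test (log2 difference 0.41). The difference passed in a fit of only the compared groups (adjusted p = 0.0124). In Fas+/+ mice Lif fell by 1.47 from week 3 (SE 0.371, adjusted p = 0.00857). In week 6 Fas-/- mice it stood at 84.5, 38.5, 44.9 and 42.9 CPM, and the difference from week 3 of -1.07 did not pass (adjusted p = 0.0764). That difference passed with DESeq2 (adjusted p = 0.0262) and, in edgeR, without week 6 Fas-/- replicate 1 (0.0422).

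Osmr (chr15:6813577-6874969, minus strand) encodes the oncostatin M receptor, which pairs with gp130. It was 145, 116, 143 and 137 CPM in naive mice, 148, 212, 263 and 284 CPM in week 3 Fas+/+ mice and 259, 283, 285 and 172 CPM in week 3 Fas-/- mice. All 8 libraries of week 3 exceeded the naive libraries, and the 2 lowest of them were again those with high endothelial markers. The rise was 1.68-fold in Fas+/+ (log2 fold change 0.75, SE 0.177, adjusted p = 0.00284) and 1.85-fold in Fas-/- mice (0.89, SE 0.177, adjusted p = 0.00131). Its week 6 levels still did not overlap with naive mice, at 171 to 220 CPM in Fas+/+ libraries and 183 to 242 CPM in Fas-/- libraries. The log2 differences were 0.54 (SE 0.176, adjusted p = 0.086) and 0.62 (SE 0.176, adjusted p = 0.045). The latter call was lost with any 1 of its 8 libraries left out (adjusted p from 0.0676 to 0.135) and with no filter (0.0552). Without the 2 week 3 libraries high in endothelial markers both genotypes passed (adjusted p = 0.00263 in Fas+/+ and 0.000789 in Fas-/- mice). The difference in Fas+/+ mice also passed with DESeq2 (adjusted p = 0.0392) and in a fit of only the compared groups (0.00582).

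Il6st (chr13:112464070-112510086, plus strand), the shared chain gp130, was nearly constant. Its lowest and highest values over all 20 libraries were 703 and 870 CPM, both in week 3 Fas-/- mice. The largest difference from naive mice, in week 3 Fas+/+ mice, was 0.09 on the log2 scale (SE 0.0731, adjusted p = 0.318). Its standard errors were the smallest of the 10 genes.

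Socs3 (chr11:117966079-117970047, minus strand), the feedback inhibitor of gp130 signalling, was at 105, 161, 121 and 179 CPM in naive mice. It reached 171, 223, 332 and 363 CPM in week 3 Fas+/+ mice and 359, 383, 327 and 302 CPM in week 3 Fas-/- mice. All Fas-/- libraries lay well above the naive range, and Fas+/+ replicate 1 lay within it. The rise was 1.92-fold in Fas+/+ (log2 fold change 0.94, SE 0.227, adjusted p = 0.00319) and 2.42-fold in Fas-/- mice (1.28, SE 0.228, adjusted p = 0.000566). At week 6 the 8 libraries ranged from 129 to 229 CPM. The fall from week 3 was 0.65 in Fas+/+ (SE 0.226, adjusted p = 0.0456), where the groups overlapped, and 1.01 in Fas-/- mice (SE 0.227, adjusted p = 0.0124), where they did not. The call in Fas+/+ mice was lost when any of 5 of its 8 libraries was left out (adjusted p from 0.00709 to 0.158 over the 8), with no filter (0.0612) and in a fit of only the compared groups (0.114).

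Il33 (chr19:29925114-29960718, plus strand) was at 21.6, 33.9, 16.1 and 39.4 CPM in naive mice, 22.3, 36.2, 48.6 and 51.5 CPM in week 3 Fas+/+ mice and 34.9, 40, 30.6 and 17.5 CPM in week 3 Fas-/- mice. The groups overlapped throughout, also at week 6, where all 8 libraries lay between 20.1 and 40.5 CPM. Its log2 difference from naive mice was 0.51 (SE 0.312, adjusted p = 0.201) in week 3 Fas+/+ mice. Without the 2 libraries high in endothelial markers it was 0.70 and passed the test (adjusted p = 0.0366).

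**Figure D2:**
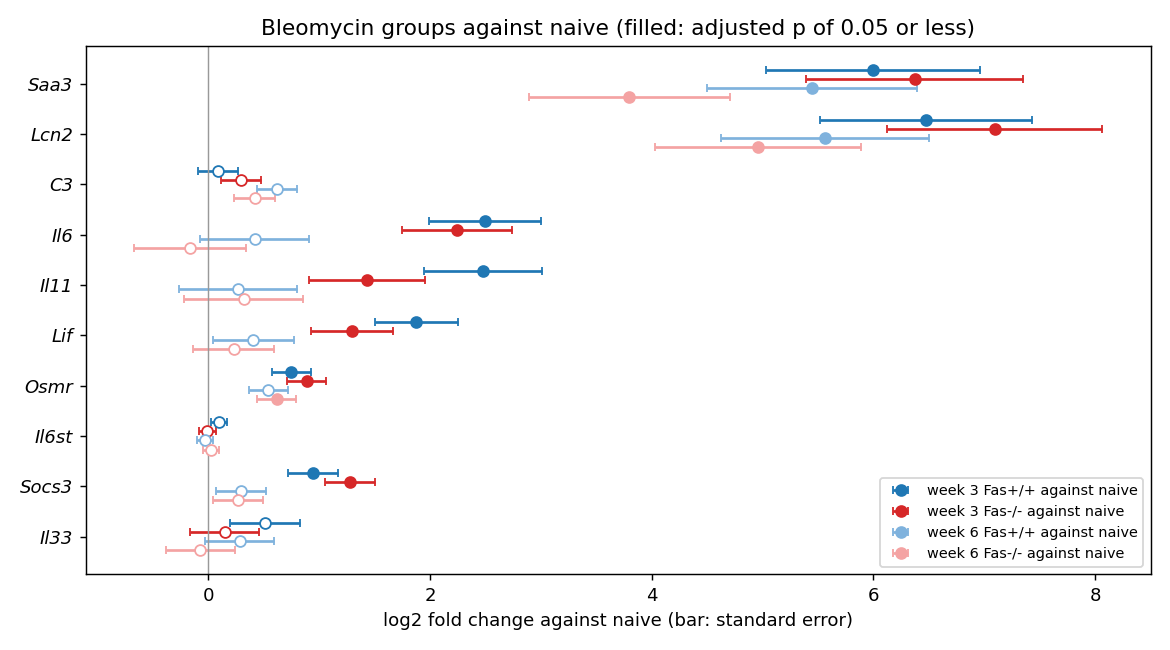
Log2 fold changes against naive mice on the x axis for the 10 genes on the y axis, in 4 bleomycin groups. Bars are standard errors derived from the F statistic, and filled points have an adjusted p of 0.05 or less. Saa3 and Lcn2 lay between 3.80 and 7.09 in all 4 groups, while the points of Il6, Il11, Lif and Socs3 at week 6 lay close to 0.

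In all, 7 of 10 genes were called higher than in naive mice in week 3 Fas+/+ mice, where 22.1% of all tested genes were called higher and 19.2% lower. In week 3 Fas-/- mice the count was also 7, against 17.2% higher and 14.8% lower of all genes. At week 6 the counts were 2 in Fas+/+ (3.57% higher, 1.74% lower of all genes) and 3 in Fas-/- mice (3.66% and 2.81%). The groups did not overlap for 3, 6, 4 and 3 genes in these comparisons, in the same order, against 32.2%, 31.1%, 16.6% and 16.1% of all tested genes. The median log2 difference of the 10 genes was 1.41, 1.29, 0.41 and 0.295, and that of all tested genes lay between 0.001 and 0.02. The 4 comparisons share the naive libraries. In bulk libraries, fewer cells of a type and less RNA per cell cannot be told apart.

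Between the weeks, 1 of 10 genes (C3) was called higher and 4 (Il6, Il11, Lif and Socs3) lower at week 6 than at week 3 in Fas+/+ mice, where 12% of all genes were called higher and 10.9% lower. In Fas-/- mice 0 were called higher and 3 (Saa3, Il6 and Socs3) lower, against 4.48% and 4.54% of all genes. The weeks did not overlap for 0 of the 10 genes in Fas+/+ and for 4 in Fas-/- mice, against 23.5% and 17.4% of all genes. Without the 2 libraries high in endothelial markers 5 were called in Fas+/+ mice, with Osmr (-0.36, adjusted p = 0.016) in place of C3, where 18.6% of all genes were called higher and 17.6% lower. In Fas-/- mice 7 were then called, with Lcn2, Il11, Lif and Osmr added, where 7.78% of all genes were called higher and 9.05% lower.

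Markers of other cell types changed in the same comparisons, some lists upward and others downward. Summed levels of the 8 profibrotic fibroblast markers were 12490 to 17420 CPM in naive mice, 10990 to 56970 CPM in week 3 Fas+/+, 19920 to 48800 CPM in week 3 Fas-/-, 13620 to 18450 CPM in week 6 Fas+/+ and 17810 to 25560 CPM in week 6 Fas-/- mice. The 6 macrophage markers summed to 7.99 to 11.1 CPM in naive mice, to 70.7 to 84.7 and 44 to 151 CPM at week 3 in Fas+/+ and Fas-/- mice, and to 26.3 to 163 and 11.5 to 26 CPM at week 6. All 8 week 6 libraries thus lay above the naive libraries. The 8 blood endothelial markers, from a class high in Socs3 in single cells, summed to 227 to 501 CPM in naive mice. They summed to 2301 to 9048 and 660 to 7927 CPM at week 3, and to 517 to 1773 and 176.5 to 2678 CPM at week 6. Of these 8 markers 8 and 6 were called higher than in naive mice at week 3, and 0 in both genotypes at week 6. The 9 alveolar epithelial markers, from a cell type that can itself make lipocalin-2, summed to 30.7 to 140 CPM in naive mice, to 194 to 766 and 276 to 480 CPM at week 3, and to 579.5 to 1643 and 134 to 427 CPM at week 6. Of these 9 markers 8, 8, 9 and 1 were called higher than in naive mice in week 3 Fas+/+, week 3 Fas-/-, week 6 Fas+/+ and week 6 Fas-/- mice. The 6 lymphatic endothelial markers summed to 8.98 to 22 CPM in naive mice, to 265 to 403 and 98.9 to 554 CPM at week 3, and to 28.6 to 149 and 8.04 to 314 CPM at week 6, and 6, 6, 2 and 3 of them were called higher. The 6 neutrophil markers, a cell type rich in lipocalin-2, summed to 1.38 to 4.82 CPM in naive mice, to 3.14 to 19.8 and 4.49 to 21.3 CPM at week 3, and to 1.09 to 4.96 and 0.677 to 5.07 CPM at week 6. Of 3 neutrophil markers tested 1 was called higher at week 3 in each genotype and 0 at week 6. The 6 mesothelial markers, of a class high in C3 and Il33 in single cells, went the other way at week 3. They summed to 482 to 1026 CPM in naive mice and to 248 to 503 and 358 to 406 CPM at week 3. At week 6 they summed to 520 to 765 and 537 to 978 CPM. At week 3, 5 and 4 were called lower than in naive mice. From week 3 to week 6, 4 and 5 were called higher. The 7 markers of dissociation stress, immediate early and heat shock genes that enzymatic digestion induces, summed to 5823 to 7312 CPM in naive mice and to 4066 to 5770 and 4636 to 8640 CPM at week 3. Other marker lists also fell mostly at week 3 in Fas+/+ and Fas-/- mice. Called lower were 6 and 6 of 8 Col14a1 fibroblast, 7 and 4 of 8 lipofibroblast and 6 and 6 of 6 pericyte markers. So were 5 and 6 of 6 vascular smooth muscle markers. Called higher were 1 Col14a1 fibroblast marker in Fas+/+ and 1 lipofibroblast marker in Fas-/- mice. Of all genes 19.2% and 14.8% were called lower. The part of the other markers in the changes was not tested.

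Promoters of 4 of the genes that rose are shown because they carry short motifs of the factors known to act in this response. That these 4 hold such motifs was thus fixed by the choice. They are RefSeq sequences of GRCm38.p6, from 250 bases before to 50 bases after the start, written 5′ to 3′ in the direction of the gene. Capitals mark matches, on either strand, to a C/EBP motif (TTGCNNAA) in Saa3, Lcn2 and Il6, an NF-κB motif (GGNNTTTCC) in Saa3 and Il6, an AP-1 motif (TGANTCA) in Il6, and a STAT motif (TTCNNNGAA) in Socs3.
Saa3, chr7:46715627-46715926, minus strand: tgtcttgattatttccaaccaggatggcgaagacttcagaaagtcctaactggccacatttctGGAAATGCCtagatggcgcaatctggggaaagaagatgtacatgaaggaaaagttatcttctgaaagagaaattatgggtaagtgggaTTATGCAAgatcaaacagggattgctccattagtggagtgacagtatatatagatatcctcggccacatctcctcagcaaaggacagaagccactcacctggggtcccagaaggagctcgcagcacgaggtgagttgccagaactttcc
Lcn2, chr2:32387690-32387989, minus strand: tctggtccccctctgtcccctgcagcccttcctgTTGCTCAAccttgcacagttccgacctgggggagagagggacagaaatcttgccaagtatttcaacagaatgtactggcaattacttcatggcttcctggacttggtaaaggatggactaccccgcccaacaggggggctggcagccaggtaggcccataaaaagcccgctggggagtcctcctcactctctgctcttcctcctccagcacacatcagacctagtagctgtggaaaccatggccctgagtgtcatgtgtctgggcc
Il6, chr5:30012864-30013163, plus strand: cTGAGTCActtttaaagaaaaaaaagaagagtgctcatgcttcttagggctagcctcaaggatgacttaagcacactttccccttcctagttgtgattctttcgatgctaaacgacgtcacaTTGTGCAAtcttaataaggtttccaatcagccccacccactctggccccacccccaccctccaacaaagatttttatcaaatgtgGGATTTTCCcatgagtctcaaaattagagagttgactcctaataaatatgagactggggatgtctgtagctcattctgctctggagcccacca
Socs3, chr11:117969317-117969616, minus strand: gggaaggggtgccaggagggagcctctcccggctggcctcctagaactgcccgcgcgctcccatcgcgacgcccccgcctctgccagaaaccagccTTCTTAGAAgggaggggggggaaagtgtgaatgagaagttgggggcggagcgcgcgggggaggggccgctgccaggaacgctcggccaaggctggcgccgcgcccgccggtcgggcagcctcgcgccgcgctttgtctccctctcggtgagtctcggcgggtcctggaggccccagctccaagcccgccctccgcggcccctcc
The C/EBP motif began 99 bases before the start in Saa3, 216 before it in Lcn2 and 128 before it in Il6, and others stood 45 bases before the start of C3 and 85 before the other start site of Il33. Of 32544 promoters of this length, 10.8% held it. The forms of the C/EBP and NF-κB motifs were chosen after matches were seen. The NF-κB motif, 187 bases before the start in Saa3 and 43 before it in Il6, occurred in 5.83% of promoters, the STAT motif of Socs3, at 154 bases before it, in 8.33%, and the AP-1 motif, also present in Lif, Osmr and the other start site of Il11, in 7.79%. None of the listed motifs overlapped another in these 4 sequences. A match describes letters and shows no binding.

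Levels can be compared between genes per kilobase of exon. In naive mice C3 stood at 847 CPM per kb, followed by Il6st at 68.1 and Socs3 at 48.9. Osmr at 11.1, Lif at 10.4 and Il33 at 9.61 CPM per kb came next and did not differ beyond their spread, and Il6 (2.28), Il11 (0.756), Saa3 (0.696) and Lcn2 (0.227) were lowest. Il11 and Saa3 also did not differ beyond their spread. In week 3 Fas+/+ mice Saa3 had reached 44.4 ± 40.5 CPM per kb and Lcn2 20.7 ± 17.6 CPM per kb (SD, n = 4).

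Loss of Fas was compared within each week. At week 3 edgeR called none of the 10 genes between Fas-/- and Fas+/+ mice, where 0.165% of all genes were called higher and 0.00634% lower at the adjusted threshold. At an unadjusted p of 0.05 or less the count was 0 of 10, against 8.62% of all genes. The nearest was Il11, with a log2 difference of -1.05 (SE 0.5, adjusted p = 0.581), followed by Lif with -0.58 (SE 0.364, adjusted p = 0.721). Il11 ran from 1.43 to 5.91 CPM in Fas-/- and from 1.37 to 17.9 CPM in Fas+/+ mice, so the groups overlapped, as they did for all 10 genes, where 3.92% of all genes did not overlap. Without the 2 libraries high in endothelial markers, Il11 was lower in Fas-/- mice, with a log2 difference of -1.12 (SE 0.304, adjusted p = 0.0496) and Lif differed by -0.77 (adjusted p = 0.0576), and 2.55% of all genes were called higher and 1.23% lower. In that setting the 3 Fas-/- libraries held 4.74 to 5.91 CPM of Il11 and the 3 Fas+/+ libraries 6 to 17.9 CPM. These libraries still did not overlap in blood endothelial markers, as given above. With any single library left out instead, Il11 was not called (lowest adjusted p = 0.0744). Saa3 and Lcn2 had log2 differences of 0.38 and 0.62 with all libraries, and that of Saa3 turned to -0.04 without the 2 libraries.

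At week 6 none of the 10 genes was called between the genotypes either, where 0.0254% of all genes were called in each direction. Saa3 alone had an unadjusted p below 0.05, a level that 8.07% of all genes reached. Its log2 difference was -1.65 (SE 0.769, adjusted p = 0.6), with 13.3 to 37.5 CPM in Fas-/- and 7.59 to 214 CPM in Fas+/+ mice. The Fas+/+ group held both the lowest and the highest library, and the genotypes overlapped for all 10 genes, against 6.81% of all genes whose groups were apart. For the genotype-by-week interaction 0 of 10 genes were called, where 0% of all genes were called higher and 0.00634% lower. For it, too, 0 of 10 reached an unadjusted p of 0.05, which 7.67% of all genes did. With 4 libraries against 4 the smallest p an exact two-sided permutation test can give is 0.0286.

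**Figure D3:**
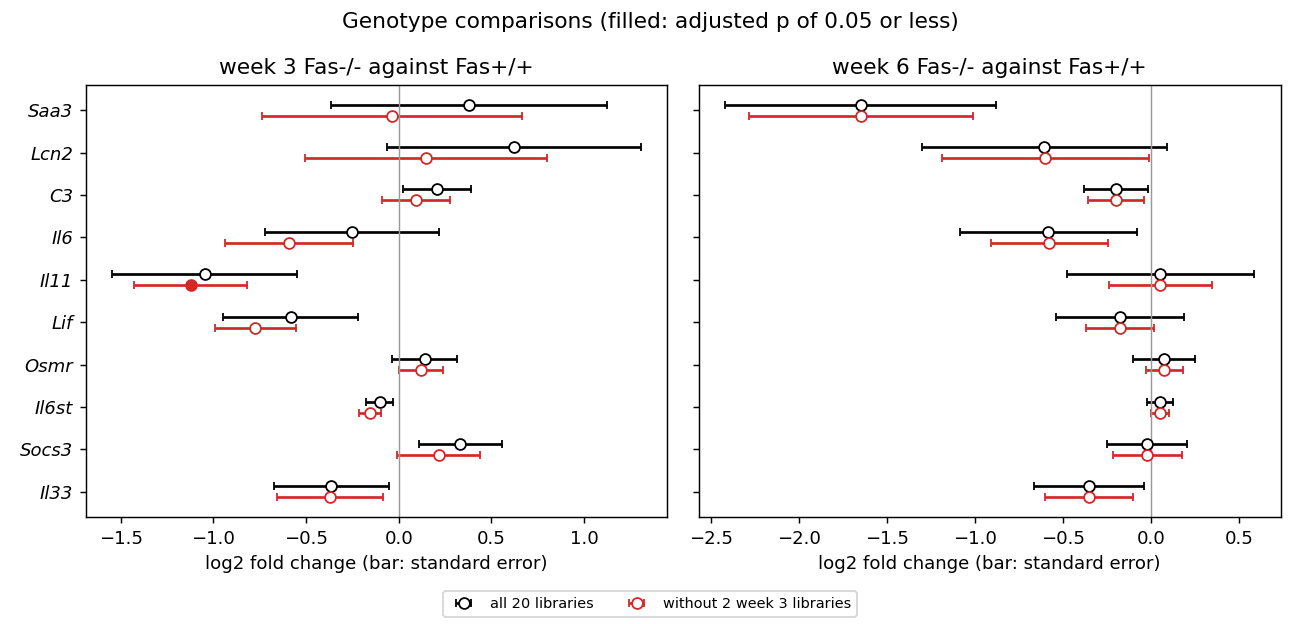
Log2 differences of Fas-/- from Fas+/+ mice at week 3 (left) and week 6 (right) for the 10 genes, with standard errors, over all 20 libraries (black) and without week 3 Fas+/+ replicate 1 and week 3 Fas-/- replicate 4 (red); filled points have an adjusted p of 0.05 or less. Il11 at week 3 without those libraries, at -1.12, is the only filled point.

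The rest of the pathway was described from lists of its other genes, whose counts stand beside the same background of all tested genes as above (22.1% higher and 19.2% lower in week 3 Fas+/+, 17.2% and 14.8% in week 3 Fas-/-, 3.57% and 1.74% in week 6 Fas+/+, 3.66% and 2.81% in week 6 Fas-/- mice). Of 29 other acute-phase proteins 20 were tested, and 11 were higher and 2 lower in week 3 Fas+/+ than in naive mice, 12 and 1 in week 3 Fas-/- mice, 3 and 0 in week 6 Fas+/+ mice and 4 and 1 in week 6 Fas-/- mice. Haptoglobin (Hp), which binds free haemoglobin, had 8.62 ± 4.72 CPM in naive libraries, 214 ± 132 CPM in week 3 Fas+/+ libraries and 304 ± 86.2 CPM in week 3 Fas-/- libraries (SD, n = 4; log2 fold changes 4.63 and 5.14, adjusted p = 1.86e-05 and 2.12e-05). It was still raised at week 6, by 3.06 in Fas+/+ and 3.83 in Fas-/- mice (adjusted p = 0.00293 and 0.000827). The serpin gene Serpina3g rose from 0.364 CPM to 17.9 and 11 CPM at week 3 (log2 fold changes 5.61 and 4.91). The other serum amyloids stayed rare, Saa1 at 1.23 and 1.68 CPM and Saa4 at 0.708 and 0.932 CPM on average at week 3, against 0.126 and 0.0108 CPM in naive mice. Both passed the test in both genotypes at week 3 (adjusted p = 0.011 and 0.00534 for Saa1, 0.000806 and 0.000496 for Saa4). The paralogs of the serum amyloid and serpin families are similar in sequence, so reads may have been split between them in counting.

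Of 18 other complement genes 15 were tested, with 5 higher and 5 lower in week 3 Fas+/+ mice, 7 and 2 in week 3 Fas-/- mice, 3 and 0 in week 6 Fas+/+ mice and 4 and 0 in week 6 Fas-/- mice. With 22.1% and 19.2% of all genes called higher and lower in week 3 Fas+/+ mice, no common direction is read from the complement list there. Those that changed most were C1qa, C1qb and C1qc, subunits of C1q that macrophages are known to make, and Hc, which encodes C5. C1qa averaged 0.192 CPM in naive libraries and 3.79 and 1.79 CPM in week 3 Fas+/+ and Fas-/- mice, beside the rise in macrophage markers given above. Hc went from 0.125 CPM to 4.7 and 2.9 CPM (log2 fold changes 5.14 and 4.43, adjusted p = 0.00296 and 0.011).

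Among the other ligands of the IL-6 family 3 of 8 were tested. Clcf1, which encodes cardiotrophin-like cytokine factor 1, rose at week 3 by 1.02 in Fas+/+ and 0.82 in Fas-/- mice on the log2 scale. The private receptors went mostly the other way. Of 5 tested, 1 was higher and 3 were lower than in naive mice in both genotypes at week 3. Il6ra, the IL-6 receptor, fell by 1.57 in Fas+/+ (SE 0.297, adjusted p = 0.000566) and by 1.39 in Fas-/- mice (SE 0.296, adjusted p = 0.00211). Il11ra1, the IL-11 receptor, fell by 1.12 (SE 0.105, adjusted p = 1.04e-06) and by 0.80 (SE 0.105, adjusted p = 4.44e-05), and Cntfr, the receptor of ciliary neurotrophic factor, fell by 1.09 and 1.33. Il27ra, the receptor of IL-27, rose by 1.37 and 1.12. The ligands Il6 and Il11 thus rose at week 3 in the same groups in which their private receptors fell.

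Of 15 genes of JAK-STAT signalling and its other inhibitors, 5 were higher and 1 lower in week 3 Fas+/+ mice and 6 higher and 1 lower in week 3 Fas-/- mice. Between the genotypes 1 of the 15, not reported here by name, was called higher in Fas-/- mice at week 3, where 0.165% of all genes were. At week 6 the count was 0. Stat3, the main transcription factor downstream of gp130, rose by 0.55 (SE 0.132, adjusted p = 0.0033) and 0.71 (SE 0.132, adjusted p = 0.000733), and Cish, a feedback inhibitor, by 1.79 and 1.56. Of 17 other targets of STAT3 or NF-κB, 9 were higher in week 3 Fas+/+ and 10 in week 3 Fas-/- mice, and none was lower. They included the chemokines Ccl2 (2.95 and 2.86) and Cxcl1 (1.42 and 1.62), the cofactor Bcl3 (1.83 and 1.76) and the NF-κB inhibitor Tnfaip3 (1.37 and 1.74). Around Il33, 8 genes of its receptor and of the IL-1 family were tested, with 4 higher and 1 lower in week 3 Fas+/+ mice and 4 higher and 0 lower in week 3 Fas-/- mice. Il1rl1, which encodes ST2, rose by 3.59 (SE 0.576, adjusted p = 0.000134) and 4.24 (SE 0.579, adjusted p = 6.32e-05), while Il33 itself did not pass the test. Il1rn, the IL-1 receptor antagonist, averaged 0.0108 CPM in naive libraries, and 3.1 and 3.99 CPM at week 3 in Fas+/+ and Fas-/- mice.

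The genes whose log2 CPM was most like each member over the 20 libraries were found among all tested genes. For Saa3 they were Relb (Pearson correlation 0.963), Serpina3h (0.961) and Serpina3i (0.961), and for Lcn2 Serpina3i (0.982), Serpina3h (0.981) and Hp (0.97). Il6 was most like Odc1 (0.969), Ptgs2 (0.958) and Mapre1 (0.945), Il11 like Eef1g (0.956), Ldha (0.947) and Pappa (0.945), and Lif like Has2 (0.954), Egr2 (0.949) and Slc7a5 (0.941). Socs3 was most like Mt2 (0.929), Noct (0.924) and Stat3 (0.921), and Osmr like Tnfaip2 (0.956), Chrna7 (0.942) and Eif1a (0.942). The correlations were lower for C3, with Pdpn at 0.856, Cfb at 0.821 and Arhgap15 at 0.818, for Il33, with Ccl9 at 0.877, Gprc5b at 0.87 and Cyp1b1 at 0.861, and for Il6st, with Atp1b3 at 0.828, Rhoj at 0.823 and Gdpd5 at 0.812. The libraries share groups, so these values describe a pattern over 5 groups and carry no test.

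Single-cell RNA-seq showed which cells held these transcripts. The deposited matrices hold 13900 barcodes, and 12059 were kept because they had between 200 and 7500 genes and no more than 20% of UMIs from mitochondria (unique molecular identifiers, here counts of distinct transcripts). The cells formed 23 clusters, computed without the 10 genes and the pathway lists, and each cluster was named from markers as like a class, with 4 clusters left unnamed. Scrublet marked 0.357% of cells as doublets, too few for it to have worked, so doublets remain beyond those removed by the limit of 7500 genes and by the gate of the sort.

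The week labels of the single-cell libraries went against bulk. Over 718 genes that differed by at least 1 on the log2 scale between week 6 and week 3 in bulk Fas+/+ mice, 1 (0.139%) differed in the same direction between the single-cell libraries labelled so, with a correlation of -0.912 across these genes. In Fas-/- mice 66 of 327 genes (20.2%) had the same sign, and the correlation was -0.526. Within lipofibroblast-like cells alone the shares with the same sign were 17.2% and 20.5%. Spp1, a marker of injury-activated fibroblasts, stood at 286 CPM in the single-cell library labelled week 3 Fas+/+ and 3870 CPM in that labelled week 6 Fas+/+, against 1730 and 165 CPM in bulk. Which labels are right cannot be told from these files. The single-cell values are therefore given by label, and no direction over time is drawn from them. Libraries also shared cell barcodes, 378 of 766 (49.3%) in the naive library and 5.69% to 14.3% in the other 4. Among kept naive cells the shared barcodes had a median of 11972 UMIs and the others 4520, whereas in the other 4 libraries the shared barcodes were shallow, with medians of 758 to 1133 UMIs. Without shared barcodes 15 of 50 library levels moved by more than 1.1 times and beyond their counting interval. Those of the genes described by library are given below.

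**Figure D4:**
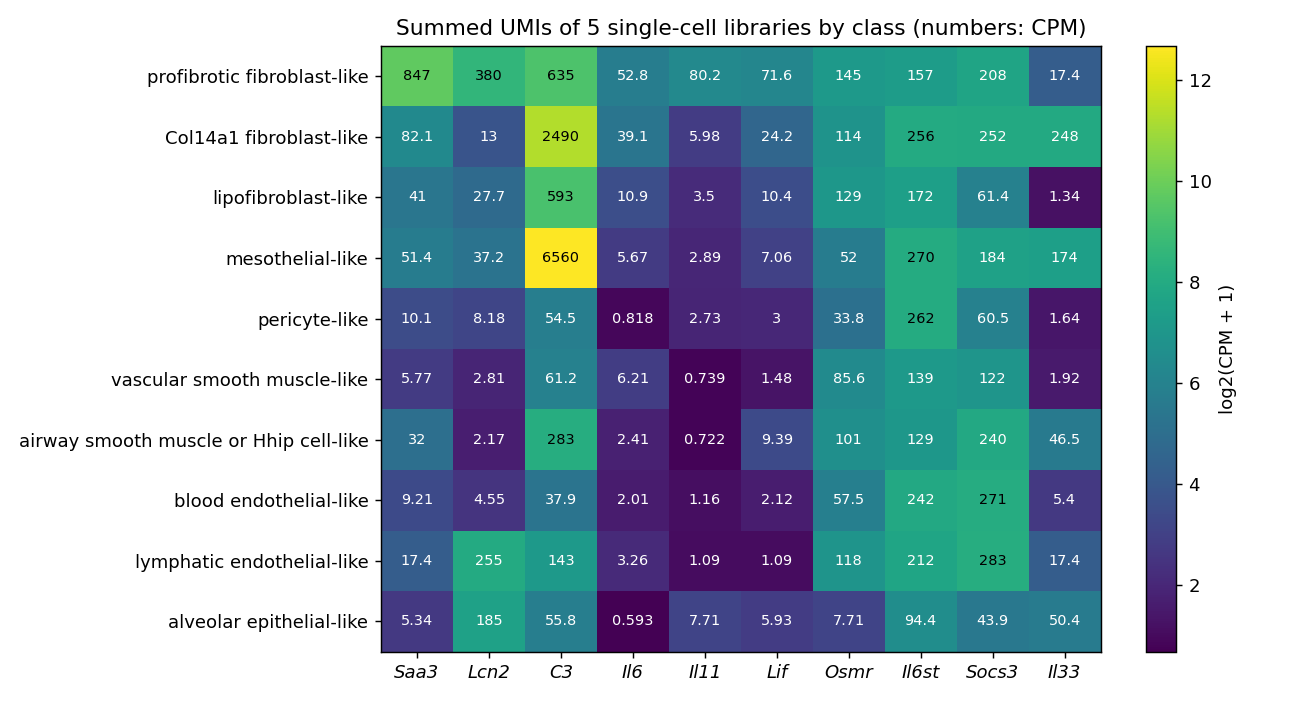
Level of each of the 10 genes (columns) in 10 named classes of single cells (rows), as CPM from UMIs summed over 5 libraries and written in each cell, with colour on the scale log2(CPM + 1). The unnamed clusters and the erythroid and platelet classes are not shown. Among the classes shown, at resolution 0.8, Saa3, Il11 and Lif were highest in profibrotic fibroblast-like cells, C3 in mesothelial-like cells and Il33 in Col14a1 fibroblast-like cells, while Il6st lay between 94.4 and 270 CPM in all 10.

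At the resolution of 0.8 used for clustering, most UMIs of Saa3, Lcn2, Il11, Lif and Il6, summed over the libraries, lay in 1 class. Profibrotic fibroblast-like cells, 1486 of 12059, held 75.4% of all Saa3 UMIs (95% exact binomial interval 75.0 to 75.9%, counting error only), 77.1% of Lcn2, 85.5% of Il11, 62.2% of Lif and 52.6% of Il6. In the libraries labelled week 3 Fas+/+, week 3 Fas-/-, week 6 Fas+/+ and week 6 Fas-/- these cells held 85%, 66.7%, 75.6% and 71.6% of Saa3 and 70.1%, 76%, 74.6% and 80% of Lcn2 UMIs. The ligands differed between the labels, since the class held 9.62%, 20.2%, 90.3% and 92.1% of Il11, 27.4%, 29.6%, 72.4% and 71.6% of Lif and 23.8%, 14.8%, 56.7% and 62.4% of Il6 UMIs. In the libraries labelled week 3 an unnamed cluster led by Clec11a and Ppp1r3a held 32.7% and 30.3% of Il11, 35.7% and 23.6% of Lif and 16.5% and 39.8% of Il6 UMIs. For Il11 a pair of cells held 64.2% of all UMIs, and without them, an alternative chosen after seeing the data, the share of the profibrotic class was 59.4%. At resolution 1.2 the class had 1069 cells and held 16.8% of Saa3, 19% of Lcn2, 82.3% of Il11, 50.1% of Lif and 30.4% of Il6 UMIs. A separate cluster of 166 cells led by Saa3 and Lcn2, which the markers left unnamed, then held 47.9% of Saa3 and 48.1% of Lcn2 UMIs, and 156 of its cells had been in the profibrotic class at 0.8 as part of cluster 7 described below.

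In the named classes at resolution 0.8, the Saa3 level of profibrotic fibroblast-like cells was 847 CPM over all libraries. It was 82.1 CPM in Col14a1 fibroblast-like, 41 CPM in lipofibroblast-like and 10.1 CPM in pericyte-like cells. The unnamed cluster led by Clec11a and Ppp1r3a, with 1355 cells, was not confined to low levels. It held 112, 66.4, 226 and 626 CPM of Saa3 in the libraries labelled week 3 Fas+/+, week 3 Fas-/-, week 6 Fas+/+ and week 6 Fas-/-. Lcn2 stood at 380 CPM in profibrotic fibroblast-like cells, but also at 255 CPM in lymphatic endothelial-like and 185 CPM in alveolar epithelial-like cells, against 8.18 CPM in pericyte-like cells. Il6 was at 52.8 CPM in profibrotic fibroblast-like and 39.1 CPM in Col14a1 fibroblast-like cells, and at 10.9 CPM or less in every other named class shown. For Lif the same 2 led among the named classes, with 71.6 and 24.2 CPM. In the same order of labels, the unnamed cluster led by Clec11a held 8.31, 9.76, 58.4 and 23.1 CPM of Il6. Its Lif levels were 32.3, 13.1, 43.3 and 18.3 CPM. Another unnamed cluster, led by Ppp4r4, held 11.2, 3.53, 90.2 and 55.1 CPM of Il6 and 15, 23, 95.5 and 43.8 CPM of Lif.

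C3 and Il33 had another distribution. C3 was at 6560 CPM in mesothelial-like cells, which held 39.1% of its UMIs, and at 2490 CPM in Col14a1 fibroblast-like cells, while profibrotic fibroblast-like and lipofibroblast-like cells were at 635 and 593 CPM. In each of the 5 libraries mesothelial-like cells held between 5360 and 8210 CPM. Il33 was at 248 CPM in Col14a1 fibroblast-like and 174 CPM in mesothelial-like cells, against 17.4 CPM in profibrotic fibroblast-like, 1.64 CPM in pericyte-like and 1.34 CPM in lipofibroblast-like cells. At a common depth of 3000 UMIs per cell, between 18.9% and 31.4% of Col14a1 fibroblast-like cells had an Il33 UMI in the 5 libraries, against 0% to 1.25% of pericyte-like cells. Without thinning, where median depths were 5828 to 15707 UMIs, the shares of Col14a1 fibroblast-like cells were 30.4% to 51.2%. These values include barcodes shared with another library. Without those barcodes the naive level over all kept cells fell from 945 to 282 CPM for C3. For Il33 it fell from 37.8 to 6.14 CPM. In the libraries labelled week 3 Fas+/+ and week 3 Fas-/-, C3 fell from 1540 and 1200 to 1360 and 1040 CPM. Il33 there fell from 42.4 and 28.6 to 35.3 and 24.7 CPM.

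The receptor chains were spread widely. Among the named classes shown, Il6st lay between 94.4 CPM in alveolar epithelial-like and 270 CPM in mesothelial-like cells. Osmr lay between 7.71 CPM in alveolar epithelial-like and 145 CPM in profibrotic fibroblast-like cells. In the unnamed cluster led by Ppp4r4, Osmr stood at 210 to 502 CPM in the libraries given bleomycin. Socs3 was highest in endothelial classes, at 283 CPM in lymphatic and 271 CPM in blood endothelial-like cells, with 252 CPM in Col14a1 fibroblast-like and 208 CPM in profibrotic fibroblast-like cells. Lipofibroblast-like and pericyte-like cells held 61.4 and 60.5 CPM of Socs3.

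The profibrotic class comprised cluster 3, with 986 cells led by Thbs4 and Cthrc1, and cluster 7, with 500 cells led by Spp1 and Timp1. Saa3, Lcn2 and Il11 were also among the leading genes of cluster 7, although none of them entered the clustering. Saa3 stood in cluster 7 at 5040, 426, 1170 and 1160 CPM in the libraries labelled week 3 Fas+/+, week 3 Fas-/-, week 6 Fas+/+ and week 6 Fas-/-, and in cluster 3 at 421, 294, 341 and 517 CPM. Without shared barcodes cluster 7 stood at 4740, 452, 1310 and 1220 CPM, and cluster 3 of the library labelled week 3 Fas-/- at 89 CPM. The level in cluster 7 was above that in cluster 3 in each library, with and without those barcodes. Il11 in cluster 7 was at 1.84 and 10.8 CPM in the libraries labelled week 3 and at 252 and 202 CPM in those labelled week 6, with 3.02 to 4.5 CPM in cluster 3. Without shared barcodes the values of cluster 7 were 1.04, 9.83, 107 and 211 CPM. The naive library had 15 cells of the class, too few to give values.

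Transcripts of the secreted proteins came from few cells. In the library labelled week 3 Fas+/+, 231 of 2664 cells had a Saa3 UMI and a single cell held 917 of its 7660 UMIs. For Il11 a single cell held 636 of 1170 UMIs in the library labelled week 6 Fas+/+ and another held 1113 of 1351 in that labelled week 6 Fas-/-, so the level of Il11 in those libraries rests on 1 cell each. In the naive library 71 of 97 Saa3 UMIs lay in 1 cell. The naive level of Saa3 was 17.3 CPM with all barcodes and 0.768 CPM without those shared with another library, and that of C3 was 945 and 282 CPM. The Il11 level of the library labelled week 6 Fas+/+ was 33.4 CPM with them and 15.5 CPM without.

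Within the profibrotic class Lcn2 UMIs were found more often in cells with a Saa3 UMI than in cells without one. At 3000 UMIs per cell, 59.1%, 50%, 52.6% and 52.9% of cells with a Saa3 UMI also had an Lcn2 UMI in the libraries labelled week 3 Fas+/+, week 3 Fas-/-, week 6 Fas+/+ and week 6 Fas-/-. Among cells without a Saa3 UMI the shares were 7.88%, 5.84%, 6.64% and 5.67%. Cells with both numbered 26, 10, 30 and 46, and cells with only 1 of them 34, 26, 46 and 64. The intervals of the shares in cells with and without Saa3 did not overlap in any of the 4 libraries, and in pericyte-like cells 0% to 3.75% had an Lcn2 UMI at that depth. Over all profibrotic fibroblast-like cells the share with an Lcn2 UMI was 17%, 8.84%, 14.3% and 14% at that depth and 21.3%, 11.8%, 26.1% and 26.7% without thinning. Cells of 1 library share their source, so this describes 4 libraries.

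Levels by label are given for the single-cell libraries with no test, since each condition has 1 library. Over all kept cells Saa3 stood at 17.3, 286, 87.4, 256 and 427 CPM in the libraries labelled naive, week 3 Fas+/+, week 3 Fas-/-, week 6 Fas+/+ and week 6 Fas-/-. Lcn2 followed with 1.96, 69.6, 46.1, 97 and 244 CPM. Without shared barcodes the library labelled week 3 Fas-/- held 61.2 CPM of Saa3 and 41.9 CPM of Lcn2, and the naive library 0.768 CPM (1 UMI) of each. Both were above the naive library in all 4 libraries given bleomycin, as in bulk. Il6 stood at 14.6, 9.73, 5.15, 45.8 and 26 CPM and Lif at 9.26, 17.4, 11.7, 46 and 30.1 CPM, so the libraries labelled week 6 were the higher ones, whereas in bulk those of week 3 were. Socs3, at 116, 111, 111, 189 and 247 CPM, was also higher in the libraries labelled week 6. These levels are over all kept cells, and the libraries differed in composition. In the same order, blood endothelial-like cells made up 1.49%, 6.94%, 6.06%, 27.9% and 6.35% of cells. Profibrotic fibroblast-like cells made up 2.49%, 9.5%, 13.3%, 11.4% and 17.1%. The part of composition in these levels was not tested. Without shared barcodes the library labelled week 6 Fas+/+ held 36.3 CPM of Il6 and 40.9 CPM of Lif, and the naive library 6.91 CPM of Lif and 87.5 CPM of Socs3. Il6st lay between 151 and 201 CPM. Ratios of Fas-/- to Fas+/+ libraries were taken within the profibrotic class at resolution 0.8. At the label week 3 the ratio was 0.176 for Saa3 (95% counting interval 0.164 to 0.188) and 0.527 for Lcn2 (0.477 to 0.58). At the label week 6 it was 1.23 (1.19 to 1.27) and 2.1 (2.01 to 2.2). Without shared barcodes these ratios were 0.0955 and 0.398 at the label week 3 and 1.19 and 2.3 at the label week 6. The bulk log2 differences of both genes, over all sorted cells and all libraries, were 0.38 and 0.62 at week 3 and -1.65 and -0.61 at week 6. They had the opposite sign at the same label, but they did not pass the test. With 1 library left out, Saa3 at week 3 ranged from -0.0256 to 1.16 and Lcn2 at week 6 from -0.99 to 0.32. Lcn2 at week 3 and Saa3 at week 6 kept their sign. With 1 library a group, such ratios compare libraries and not genotypes.

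**Figure D5:**
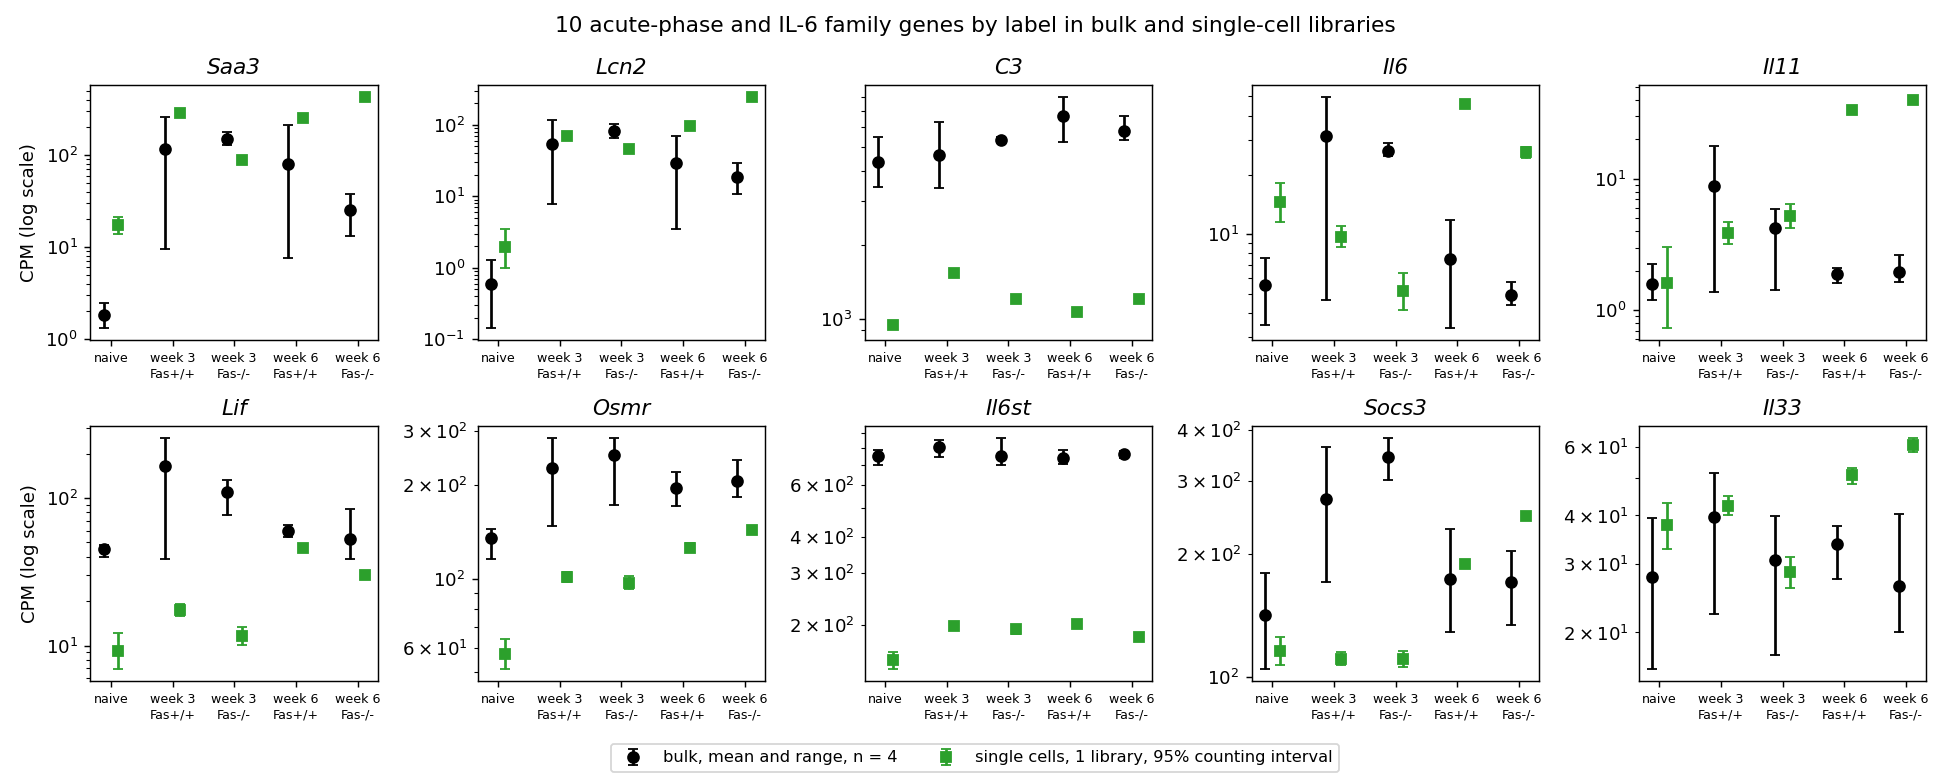
Level of each gene by label, with CPM on a log scale on the y axis and the 5 conditions on the x axis; black points give the mean and range of 4 bulk libraries, and green squares 1 single-cell library with its 95% counting interval. Il6, Il11, Lif and Socs3 were highest at week 3 in bulk and in a library labelled week 6 in single cells.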

How the data were processed

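Lin- lung cells were measured by bulk RNA-seq (20 libraries) and single-cell RNA-seq (5 libraries), and libraries were grouped by their labels. For bulk, the authors deposited raw counts per Ensembl gene, made with htseq-count from trimmed reads that Hisat2 had aligned to GRCm38. The strand setting of counting is not given in the sources used here. For single cells, the deposited counts are Cell Ranger UMIs. A deposited normalized table was not used. Some genes of the pathway lists are not reported here.

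Bulk counts were fitted with edgeR 4.0.16 in R 4.3.3 (filterByExpr with a minimum count of 10, TMM, 1 fit of all 20 libraries, quasi-likelihood F test). Benjamini-Hochberg adjustment ran over 15773 genes, with 0.05 as the highest adjusted p that counted as a call. Each SE is the absolute log2 fold change divided by the square root of the F statistic. On simulated counts for week 3 Fas+/+ against naive mice, changes of 2 and 1 on the log2 scale were recovered in 84.3% and 65.3% of genes. The changed genes were drawn at random from all tested genes. These shares therefore give no power for the genotype comparisons or for any 1 of the 10 genes. Cells were clustered with Seurat 5.3.0 and sctransform 0.4.2 (3000 features, 20 components, resolution 0.8). Scrublet was run in scanpy 1.11.5, and exact intervals (95%, scipy 1.17.1) cover counting error only.

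Named genes were all 10 members and the 3 genes most correlated with each member. Of each pathway list, up to 4 called genes with the largest absolute change against naive mice at week 3 could be named. So could list genes called between genotypes, but the 1 such gene, at week 3, is not reported here. The members, lists and tests were chosen with earlier results of these data known. Alternatives were RLE factors, DESeq2 1.42.0, no filter, only the compared groups, a replicate block and leaving out libraries, and for single cells another resolution (1.2), a stricter mitochondrial limit, Scrublet calls and shared barcodes. Same-numbered replicates showed no pairing common to all groups (correlations of their deviations from -0.464 to 0.403). Between the week 6 genotypes these averaged 0.198, against -0.066 for other numbers, and between naive and week 6 Fas-/- libraries 0.154 against -0.052. Between week 3 and week 6 Fas-/- libraries they averaged -0.121 against 0.05. Some pairing among naive and week 6 libraries is therefore not excluded.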

Additional observations from a re-analysis of the deposited data

Results flagged for a closer look

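In 3 of 50 groups of 4 libraries (10 genes in 5 bulk groups) 1 library lay further from the other 3 than Dixon's 95% critical value for 4 values allows, where chance alone would mark about 1 group in 20. Lif was 84.5 CPM in week 6 Fas-/- replicate 1, against 38.5 to 44.9 CPM in the other 3 libraries. Il33 was 40.5 CPM in week 6 Fas-/- replicate 4, against 20.1 to 23.4 CPM. Il6st was 870 CPM in week 3 Fas-/- replicate 4, against 703 to 727 CPM, and this was 1 of the 2 libraries with high endothelial markers.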

How the results depend on the processing

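No count of called genes moved by more than 1.5 times with RLE factors or the replicate block, and RLE kept the direction and the side of the threshold of all 90 single-gene results. In week 6 Fas+/+ against naive mice the count of 2 became 4 with DESeq2, 5 with only the compared groups, and 4 without week 3 Fas+/+ replicate 1 and week 3 Fas-/- replicate 4. For week 6 against week 3, the count of 5 in Fas+/+ mice became 3 with no filter and 1 with only the compared groups (Il6 adjusted p = 0.0606, Lif 0.0542), and the count of 3 in Fas-/- mice became 5 with DESeq2 and 7 without those 2 libraries. Between genotypes at week 3 the count of 0 became 1 without them. Leaving out 1 library at a time, the count of 3 in week 6 Fas-/- against naive mice ranged from 1 to 2 (1 without naive replicate 1 or 2), and that of 5 for the weeks in Fas+/+ mice from 3 to 4. Of 800 single-gene values with 1 library left out, 723 kept direction and call. Saa3 in week 6 Fas-/- mice lost its call against naive mice without naive replicate 1 or 2 (adjusted p = 0.0529 and 0.055). No cause was tested.

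The direction turned for 19 single-gene results with 1 library left out, none of them called; their log2 values then ranged as follows. Against naive mice, C3 in week 3 Fas+/+ mice ranged from -0.0925 to 0.22, Il33 in week 3 Fas-/- from -0.0396 to 0.36 and in week 6 Fas-/- from -0.36 to 0.14, Il6 in week 6 Fas-/- from -0.33 to 0.0233, Il6st in week 3 Fas-/- from -0.10 to 0.0224 and in week 6 Fas-/- from -0.0227 to 0.0416, and Lif in week 6 Fas-/- from -0.10 to 0.34. Between genotypes at week 3, Il6 ranged from -0.63 to 0.0717, Osmr from -0.0338 to 0.28 and Saa3 from -0.0256 to 1.16, and at week 6 Il11 from -0.13 to 0.12, Lcn2 from -0.99 to 0.32, Osmr from -0.0103 to 0.13 and Socs3 from -0.15 to 0.13. Between weeks, Il6st in Fas-/- ranged from -0.002 to 0.11 and Saa3 in Fas+/+ from -1.76 to 0.24. The interaction ranged from -0.28 to 0.22 for Il33, from -0.66 to 0.0443 for Il6 and from -0.21 to 0.10 for Osmr. Without the 2 week 3 libraries the genotype difference of Saa3 at week 3 was -0.0366 and the interaction of Il6 0.0147.

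With the replicate block, whose numbers are not known to pair the samples, the interaction of Il33 was -0.10. Osmr in week 6 Fas-/- mice (adjusted p = 0.0575) and Saa3 between the weeks in Fas-/- mice (0.0588) then lost their calls. C3 in week 6 Fas+/+ mice gained a call (0.0318). Single-cell levels moved by more than their counting interval in 110 of 530 values at resolution 1.2, 21 of 530 with at most 10% mitochondrial UMIs, 5 of 540 without Scrublet calls and 58 of 560 without shared barcodes. The 4 libraries a group and the 1 single-cell library a condition limit every comparison.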
